A study of Oryctolagus cuniculus with 6 samples.

Results

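The fresh limbal explant outgrowths are the rabbit limbal cells that were cultured from tissue that had not been stored, and the 3 libraries labelled fresh tissues, called fresh 1, fresh 2 and fresh 3 here, were taken by that label out of 6 libraries in the series. The question addressed is what the untreated starting culture expressed, gene by gene. Rabbit limbal biopsies were laid with the epithelial side up in keratinocyte medium, and the polyA RNA of the cells was sequenced. The other 3 libraries came from corneas frozen for 7 days in liquid nitrogen and given interleukin 1β (IL-1β), and they were not compared here. The labels give no animal, sex, age or strain for any library, and they do not say whether the 3 fresh libraries came from separate animals or cultures, so the spread between them may be technical.

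The limbus is the border between the cornea and the conjunctiva. Its basal epithelium holds the stem cells that renew the corneal epithelium, and these sit beside stromal cells, melanocytes, immune cells, vessels and nerves. Basal cells carry the transcription factor p63 (TP63) and the keratin pair KRT5 and KRT14, the eye-field factor PAX6 keeps their corneal fate, and cells that leave the basal layer for the corneal surface take up KRT3 with its partner KRT12. An explant outgrowth can carry any of the neighbouring cells along, so markers of each were read beside the epithelial genes.

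Levels are given as FPKM, fragments scaled to gene length in kilobases and to library size, unless another scale is named. The only quantity that allows a comparison between genes is one per length, and every comparison of 1 gene with another below is on that scale unless CPM, counts scaled to library size alone, are named. Values in the 3 libraries are given in the order fresh 1, fresh 2 and fresh 3, and means are followed by the SD over n = 3 libraries. A gene was called expressed when its FPKM was at least 1 in every fresh library, and not detected when no fresh library gave it more than 3 counts. The libraries held between 32715849 and 34327534 gene counts, so 3 counts equal 0.0874 to 0.0917 CPM. In bulk RNA, fewer cells of a type and less RNA per cell cannot be told apart.

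Of 22190 genes in the table, 10857 were expressed (48.9%), and 4469 (20.1%) were not detected. The distribution was steep. The 59 genes with a mean FPKM of at least 1000 held 29.2% ± 0.813 of the summed FPKM, and the 100 most abundant genes held 36.1% ± 0.491. At the other end, 10797 genes with a mean under 1 held 0.313% ± 0.0160 together. Among the 100 most abundant genes were 44 cytosolic ribosomal proteins, 8 genes of the mitochondrial genome, 7 S100 proteins, 3 keratins and 3 annexins.

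The most abundant transcript was FTH1, the heavy chain of the iron store ferritin, at 11898, 12551 and 23793 FPKM. Its level in fresh 3 was 1.95 times the mean of the other libraries. Second was SAA3, a serum amyloid A acute phase protein that epithelia also make, at 4900.3, 5711 and 11498, again with the highest value in fresh 3. The calcium-binding protein S100A6 (7214 ± 1323), the phospholipid-binding protein ANXA1 (6829 ± 769.5), the secreted chaperone clusterin, CLU (6417 ± 833), the elongation factor EEF1A1 (5659.8 ± 978) and the glycolytic enzyme GAPDH (4772 ± 728) came next. KRT14 ranked 10. SFN, the 14-3-3 protein of stratified epithelia, ranked 22 at 2038 ± 71.1, and CTSV, a lysosomal cathepsin, ranked 27 at 1812 ± 262. ACTB (2736 ± 166), S100A11 (2768 ± 35.4), RPLP1 (2684 ± 34.9) and TMSB10 (2375 ± 69.4) varied little between libraries, while the mitochondrially encoded COX2, COX3 and ATP6 were lowest in fresh 3.

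**Figure D1:**
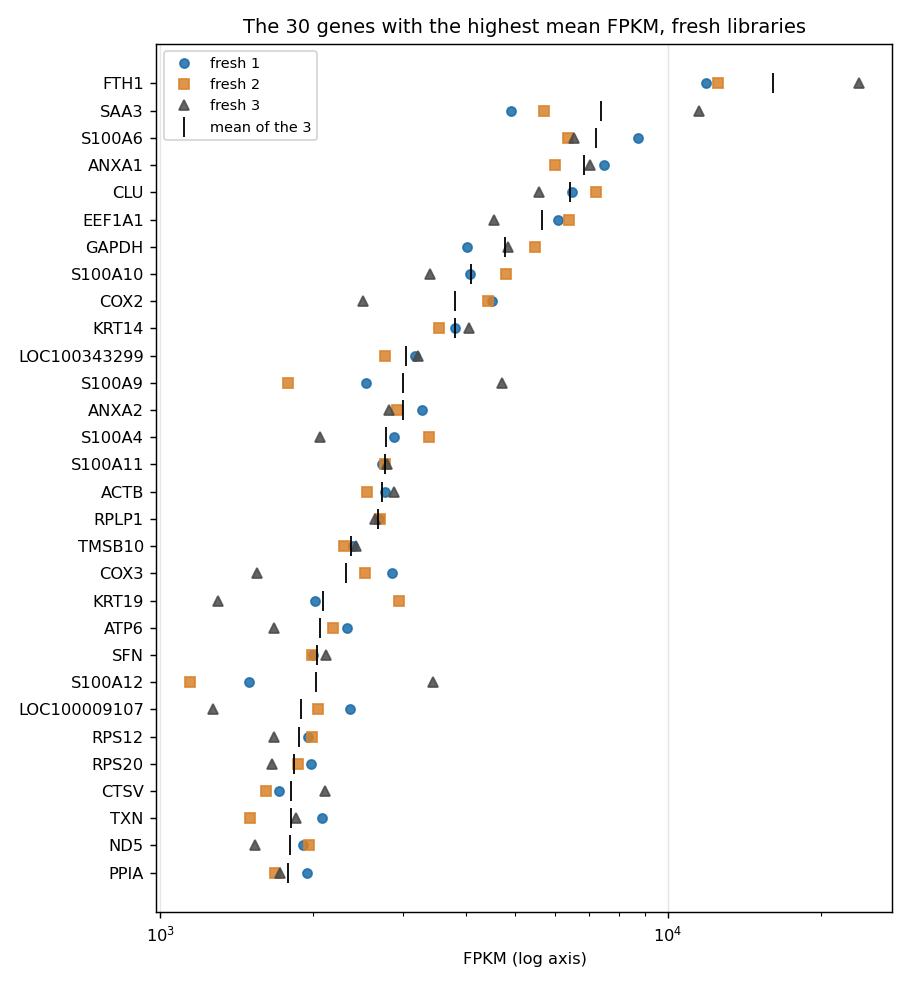
FPKM (log axis) of the 30 genes with the highest mean FPKM in fresh 1 (circles), fresh 2 (squares) and fresh 3 (triangles), with the mean as a bar. FTH1, SAA3, S100A9 and S100A12 are among the genes highest in fresh 3, and COX2, COX3 and LOC100009107 among those lowest in it.

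Without length the order changed in places. By CPM the first 5 genes were FTH1, CLU, KRT5, EEF1A1 and ANXA1, and 7 of the first 10 genes were the same on both scales. KRT5 ranked 3 by CPM and 52 by FPKM, because the gene length implied by the deposited values was 8811 bases for KRT5 and 1653 bases for KRT14. The KRT5 to KRT14 ratio was therefore 0.306 ± 0.0486 per length and 1.63 ± 0.259 by CPM. The median implied length over genes was 2976 bases, and whether 8811 bases is right for KRT5 was not tested.

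The defining markers of limbal epithelium were present. TP63 stood at 38.8, 35.8 and 38 FPKM, with an SD of 1.53 around a mean of 37.5. PAX6 stood at 49.1, 45.5 and 39.7. KRT5 was at 1279, 1170.4 and 1014 and KRT14 at 3804, 3532 and 4058, with no library far from the others. KRT3 was at 446, 1238 and 192, so fresh 2 held 3.88 times the mean of the other libraries and the highest value was 6.46 times the lowest. The intermediate filament VIM, a mesenchymal gene that cultured epithelial cells also express, was at 135, 229 and 241, lowest in fresh 1. KRT12, the partner of KRT3, was not analysed here.

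**Figure D2:**
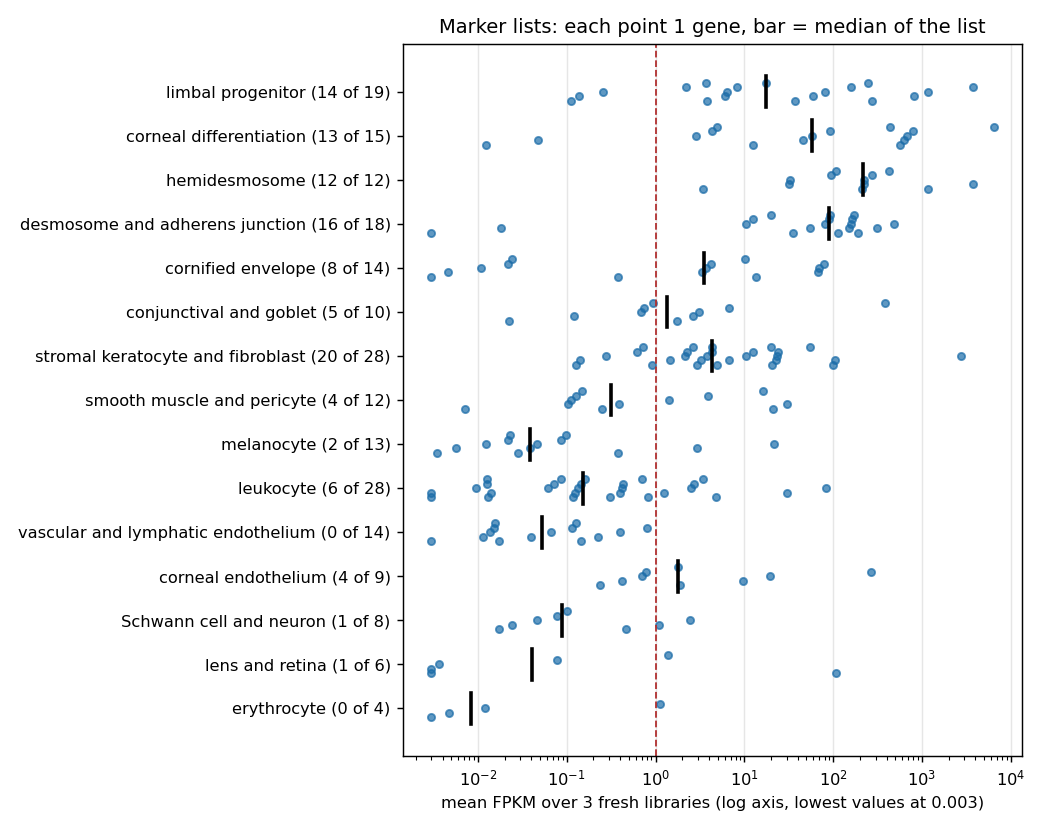
Mean FPKM over the 3 fresh libraries (log axis) of each member of 15 marker lists, 1 point a gene, with the median of the list as a bar and FPKM 1 as a dashed line. Labels give the members expressed of those in the table; the hemidesmosome list has all 12 to the right of the line, and the vascular and lymphatic endothelium list has 0 of 14.

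Keratins were led by the basal and simple-epithelial types. Among keratin genes with a symbol and KRT14, which the table holds under a description only, 15 of 28 were expressed, a share close to the 48.9% of all genes. KRT14 held 43.9% ± 9.15 of their summed FPKM. KRT19, a keratin of simple epithelia that limbal and conjunctival cells also make, was second at 2019, 2956 and 1296. KRT14 was above KRT19 in every library, with the lowest KRT14 value above the highest KRT19 value. KRT5 and then KRT3 followed by mean per length, but these levels overlapped, since KRT3 was above KRT5 in fresh 2 and under it in the other libraries. The KRT3 to KRT5 ratio per length was 0.348, 1.06 and 0.189 in the 3 libraries. This order rests on the length used for KRT5. By CPM, KRT3 was at 1018, 2834 and 431 and KRT5 at 11324, 10383 and 8831. KRT3 was thus under KRT5 in every library by CPM, a ratio of 0.137 ± 0.119. The place of KRT5 under KRT14 and KRT19 rests on that length too. By CPM, KRT5, KRT14 and KRT19 ranked 3, 6 and 15 among all genes.

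Further down, KRT7, a keratin of simple and conjunctival epithelium, was at 265, 402 and 489, lowest in fresh 1. KRT16, which keratinocytes make on wounding and in culture, was at 375, 284 and 266, and the simple keratins were at 212, 268 and 137 for KRT8 and 118, 193 and 126 for KRT18. The levels of KRT7, KRT16 and KRT8 overlapped from 1 gene to the next. KRT78, a keratin of stratified epithelium, followed KRT3 in having its highest level in fresh 2, at 40.3, 84.8 and 31.1. KRT15, often named as a limbal basal keratin, was low, at 0.891, 4.1 and 1.61 FPKM from 50, 236 and 95 counts. KRT10, a keratin of cornifying epidermis, was at 13.6, 15.5 and 11, and the conjunctival keratins KRT13 (1.15, 2.88 and 1.23) and KRT4 (1.11, 6.61 and 1.6) were near the threshold in fresh 1 and fresh 3.

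**Figure D3:**
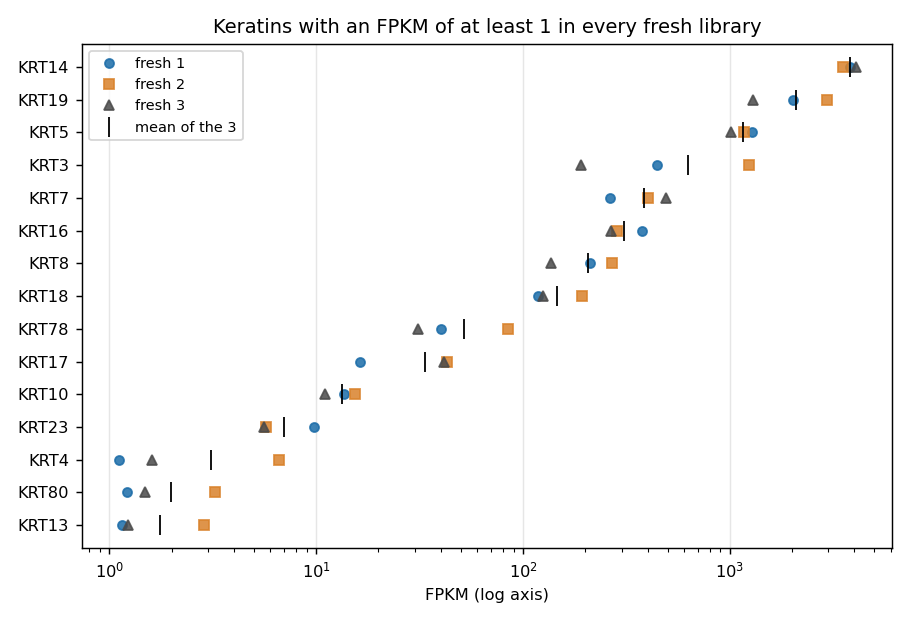
FPKM (log axis) of the 15 keratins expressed in every fresh library, with symbols for the libraries and a bar for the mean. KRT14 keeps a narrow spread of 263 around 3798 FPKM, while KRT3 runs from 192 in fresh 3 to 1238 in fresh 2.

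Hemidesmosomes tie basal cells to their basement membrane. The hemidesmosome list, which includes KRT5 and KRT14, had 12 of 12 genes expressed, where 48.9% of all genes were, with a median FPKM of 216. The transmembrane collagen COL17A1 was at 473, 386 and 408 and held 66.2% ± 13.4 of the summed FPKM of the collagens with a symbol. The hemidesmosomal integrin pair was at 294, 227 and 289 for ITGA6 and 105, 90.3 and 129 for ITGB4, a ratio of 2.52 ± 0.281. COL7A1, the anchoring fibril collagen under the hemidesmosome, had the lowest level of the list at 2.23, 2.9 and 5.14.

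Other laminin and integrin genes were read beside them. Among laminins, LAMA3 was at 217, 192 and 258 and LAMB3 at 204, 192 and 234, with a ratio of 1.06 ± 0.0515, and their values overlapped. LAMC1 was lower than both in every library at 51.9, 61.7 and 54. Among integrins, ITGB1, the shared beta chain, led at 607, 436 and 553, and ITGA6 and ITGA3 (257, 266 and 268) followed with overlapping values.

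Junction genes were close in the 3 libraries. The desmosome and adherens junction list had 16 of 18 members expressed, where 48.9% of all genes were, and summed to 2191, 2137 and 2095 FPKM. The tetraspan protein PERP led it at 503, 512 and 440.1, and plakoglobin, JUP, was at 317, 299 and 323. Among desmosomal cadherins, DSG3 of the basal layers was at 167, 141 and 174 and DSC2 at 102, 86.2 and 87.3. DSG1, the desmoglein of upper layers, was at 15.9, 16.5 and 5.02 and was lowest in fresh 3. E-cadherin, CDH1, was at 96.2, 134 and 107 and P-cadherin, CDH3, which basal cells carry, at 79.5, 84.6 and 77.6. DSG4 was not detected.

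Of the limbal progenitor list, 14 of 19 members were expressed, where 48.9% of all genes were. KRT14 held 56.9% of the summed level. The interferon-induced membrane protein IFITM3, which the table holds under a description only, was at 699.8, 1041 and 699.8, and TXNIP, an inhibitor of thioredoxin, at 316, 255 and 175. CEBPD, a transcription factor linked to quiescent limbal cells, was at 151, 159.7 and 170.3, a CV by CPM of 5.22%. SOX9 was at 15.2, 23.5 and 14 and the polycomb gene BMI1 at 3.29, 3.39 and 4.75.

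Several named stem cell markers were under FPKM 1 in every library. The transporter ABCG2 was at 0.0789, 0.063 and 0.191 FPKM from 11, 9 and 28 counts, GPHA2 at 0.156, 0.0218 and 0.596, and ITGA9 at 0.125, 0.0305 and 0.253. NGFR, a nerve growth factor receptor of basal limbal cells, differed between libraries, at 4.96, 12.1 and 0.976. ABCB5 was not analysed here.

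Transcription factors of corneal fate were expressed at moderate levels, 15 of 17 in all, where 48.9% of all genes were expressed. The ETS factors ELF3 (74.9, 117 and 82.4) and EHF (101, 90.7 and 75) overlapped. KLF5 was at 69.99, 80.6 and 68.5 and led the Kruppel-like factors in every library, above KLF10 (29.9, 41.8 and 42.2) and KLF4 (36.5, 39.2 and 32.6). SOX15, a factor of stratified epithelium, led the SOX family at 43.4, 46.1 and 40.7 and was above SOX9 in every library. SOX2 was at 0.221, 0.299 and 0.281. GRHL2, a factor of epithelial identity, was at 18.4, 18.7 and 14.3, and the epithelial splicing factors were at 84.3, 74.7 and 62 for ESRP1 and 28.4, 29.4 and 28.3 for ESRP2.

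Of the corneal differentiation list, 13 of 15 were expressed, where 48.9% of all genes were, and CLU held 65.9% of the sum. ALDH1A1, a corneal crystallin in rabbits, was at 611, 523 and 578 and made up 82% ± 2.14 of the summed FPKM of the aldehyde dehydrogenases. Transketolase, TKT, was at 745, 749.8 and 534. AQP3, an aquaglyceroporin of basal cells, was at 786, 694 and 901 and far above AQP1, a water channel of stromal cells and vessels, at 21.2, 19 and 80.2, which was highest in fresh 3. AQP5, the water channel of corneal epithelial cells, was at 1.29, 10.8 and 1.04, with 9.27 times the mean of the others in fresh 2. Of 15 members of the list, 8 of the 13 over 1 CPM were highest in fresh 2 by CPM, the scale of every such count below, where 31.4% of all such genes were.

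The leading connexins and claudins are known from stratified epithelium. GJA1 (connexin 43) was at 415, 297 and 594 and GJB2 (connexin 26) at 366, 355 and 433, which overlapped, and GJB6 followed at 42.9, 44.4 and 49.3. CLDN1 (201, 220.2 and 186) and CLDN4 (147, 203 and 177) overlapped per length, and by CPM the CLDN1 to CLDN4 ratio was 0.452 ± 0.0677. In the cornified envelope list 8 of 14 genes were expressed, a share near the 48.9% of all genes. Involucrin, IVL, was at 72.3, 125 and 42.5, CNFN at 71.3, 79.2 and 50.6 and periplakin, PPL, at 71.4, 96.5 and 37.4, all lowest in fresh 3. FLG, FLG2 and KRT2, genes of epidermal cornification, were not detected.

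Of the membrane mucins, which form the glycocalyx of surface cells, 5 were expressed, and most of these were highest in the library where KRT3 was. MUC4 was at 48.1, 185 and 28, MUC1 at 35.8, 116 and 31.8, MUC21 at 12, 30.3 and 6.18 and MUC15 at 8.4, 22.1 and 7.52, each highest in fresh 2. MUC20 was not, at 8.66, 7.87 and 6.97. The summed FPKM of these 5 was 113, 362 and 80.4. MUC16, a large membrane mucin of the ocular surface, had 1, 2 and 0 counts, and MUC12, MUC13 and MUC17 were under FPKM 1 in every library. The secreted goblet cell mucin MUC5AC, which the table holds under a description only, was at 0.494, 0.617 and 1.11, and the goblet cell gene SPDEF was at 0.0659, 0.0803 and 0.22. In the conjunctival and goblet list, 5 of 10 genes were expressed, a share close to the 48.9% of all genes, and KRT7 alone held 95.8% of the sum.

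Stromal genes were present at low to moderate levels. Of the keratocyte and fibroblast list, 20 of 28 were expressed, where 48.9% of all genes were. At a threshold of FPKM 5 the count was 12 of 28, where 7503 of all 22190 genes passed. However, S100A4, which the table holds under a description only and epithelial cells also express, held 86.5% of the sum. The whole list summed to 3144, 3753 and 2733 FPKM and was lowest in fresh 3, as S100A4 was at 2891, 3379 and 2062. The 27 other members, a set taken after the values were seen, summed to 254, 374 and 671 FPKM and were highest in fresh 3. SPARC, a matrix glycoprotein, was at 48.7, 78.1 and 186, the proteoglycan BGN at 50.6, 96.1 and 149 and DCN at 44.5, 46.2 and 74.4. COL1A1 was at 12.4, 23.8 and 23.9, COL1A2 at 11.2, 17.1 and 40.3 and COL3A1 at 9.1, 17.6 and 42.4. The keratocyte proteoglycans LUM (23, 17.9 and 30.6) and KERA (1.5, 1.18 and 4.11) were unequal, with a ratio of 12.7 ± 4.52.

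Most single stromal genes had their highest level in fresh 3, which the full sum, led by S100A4, did not. Of the stromal members over 1 CPM, 17 of 25 were highest in fresh 3, where 34.2% of all genes over 1 CPM were. Of the smooth muscle and pericyte members over 1 CPM, 3 of 5 were highest in fresh 3. ACTA2 (smooth muscle actin) was at 13.3, 12.1 and 38 and TAGLN at 7.82, 9.11 and 32.3, while ACTA1, the skeletal muscle actin, was highest in fresh 2 and lowest in fresh 3, at 2.57, 16.7 and 0.687. The defining smooth muscle genes MYH11 (0.106, 0.117 and 0.114), DES (0.0217, 0 and 0) and CNN1 (0.184, 0.119 and 0.855) were under FPKM 1 in every library. COL8A1 and COL8A2, collagens of the corneal endothelial basement membrane, were also highest in fresh 3, at 10.1, 10.7 and 37.4 for COL8A1 and 4.52, 5.82 and 18.3 for COL8A2. Whether stromal cells take part in the other differences of fresh 3 was not tested.

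Defining markers of pigment cells and lymphocytes were at or near 0. Of the melanocyte list, 2 of 13 were expressed, where 48.9% of all genes were. The 2 were RAB38 (24, 23 and 17.5) and the endothelin receptor EDNRB (4.25, 2.15 and 2.39), which other cells also use. Counts were 0, 0 and 1 for TYR, 0, 2 and 3 for PMEL and 2, 0 and 0 for MLANA, defining melanocyte genes, and 10, 9 and 6 for TYRP1. Among leukocyte genes, PTPRC, which encodes the pan-leukocyte antigen CD45, was at 0.090, 0.0361 and 0.0605 from 17, 7 and 12 counts. The T cell gene CD3D and the B cell gene CD79B had 0 counts in every library, and 0 counts allow up to 3 counts, or 0.0917 CPM.

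The leukocyte genes that were expressed numbered 6 of 28, a share under the 48.9% of all genes. The lysosomal glycoprotein CD68, which epithelial cells hold in lysosomes as well, was at 75.9, 101 and 73.3, and LAPTM5, a lysosomal protein of blood cells, at 25, 24.7 and 41.9. The signalling adaptors TYROBP (2.48, 1.28 and 4.28) and FCER1G (2.71, 2.51 and 5.04), the monocyte receptor CD14 (4.12, 3.71 and 6.64) and C1QB (1.9, 2.74 and 2.81) were low. The macrophage genes CD163 (0.697, 0.141 and 0.353), CSF1R (0.39, 0.482 and 0.421) and AIF1 (0.97, 0.901 and 0.572) were under FPKM 1 in every library.

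Of the vascular and lymphatic endothelium list, 0 of 14 were expressed, where 48.9% of all genes were. PECAM1 was highest at 0.935, 0.77 and 0.727, and TEK had 0 counts. The endothelial genes CDH5 (0, 0.0141 and 0.0206), VWF (0, 0.0203 and 0.0264) and KDR (0.0242, 0 and 0.0276) were close to 0. The corneal endothelium list had 4 of 9 expressed, near the 48.9% of all genes, and SLC4A11, a transporter of that layer, was at 1.46, 1.5 and 2.48. In the Schwann cell and neuron list the tubulin TUBB3 (2.51, 2.03 and 2.81) was the only gene expressed, while CDH19 was at 0.0237, 0.0847 and 0.0301.

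In the lens and retina list BEST1, bestrophin of the retinal pigment epithelium, was the only gene expressed, at 113, 92 and 120.1, and held 98.7% of the sum. BEST1 and FTH1 are neighbours in the RefSeq gene table of the assembly mOryCun1.1, which may not be the annotation used for the counting. The strand setting of the counting is not stated, and whether transcripts of BEST1 and FTH1 overlap or share reads was not tested. FTH1 in fresh 3 was 1.95 times the mean of the others, and BEST1 1.17 times. The erythrocyte list had 0 of 4 expressed, where 48.9% of all genes were, with HBA at 0.886, 1.4 and 1.11 from 16, 26 and 21 counts.

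Cell cycle genes were broadly expressed. Of the proliferation list, 30 of 31 were expressed, where 48.9% of all genes were, with a median FPKM of 33.2. The Ki67 gene MKI67 was at 20.2, 13.2 and 10.04, topoisomerase TOP2A at 31, 20.7 and 19.4, the cyclin CCNB1 at 89.2, 59.8 and 62.7 and the replication clamp PCNA at 133, 116 and 111. Fresh 1 was highest for 26 of 31 members, where 34.4% of all genes over 1 CPM were highest in it. H2AZ1, a histone variant, led the list at 390.2, 324 and 388. The ribonucleotide reductase subunit RRM2 (96.4, 65.4 and 73.5) and the replication helicase subunit MCM6 (52.7, 41.1 and 36.7) were highest in fresh 1 as well.

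Arrest genes were expressed beside them. CDKN1A, which encodes the cell cycle inhibitor p21, was at 425, 488 and 545 and 46.4 ± 8.21 times CDKN1B. CDKN2B, which encodes p15, was at 48.8, 56.2 and 51.6, and CDKN2A, held in the table under a description only, was at 14.9, 40.5 and 20.2, highest in fresh 2.

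Epithelial and mesenchymal genes were read together. VIM was the leading member of that list and FN1, fibronectin, was at 46.9, 111 and 117, lowest in fresh 1 like VIM. SNAI2, a repressor that basal keratinocytes express, was at 19.8, 17.1 and 19.2, and SNAI1 at 0.348, 1.42 and 0.818. The mesenchymal repressors were at 0.211, 0.241 and 0.624 for ZEB1 and 0.27, 0.612 and 0.726 for ZEB2. N-cadherin, CDH2, was at 0.0751, 0.104 and 0.537 from 12, 17 and 90 counts, against 96.2, 134 and 107 for CDH1.

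Levels within the interleukin 1 and inflammasome list were far apart, with 14 of 15 members expressed, where 48.9% of all genes were, and a median of 3.65 FPKM. At a threshold of FPKM 5 the count was 6 of 15, where 7503 of all 22190 genes passed. IL1RN, the receptor antagonist, was at 493, 698 and 603, and IL1A, an epithelial alarmin, at 378, 352 and 539, a ratio of 1.47 ± 0.456. IL1B, the cytokine of the inflammasome pathway, was at 2.87, 3.15 and 2.72 from 167, 188 and 166 counts, so that the IL1A level was 147 ± 45.4 times that of IL1B. IL18 was at 103, 92.9 and 111 and IL36G at 34.7, 45.8 and 62.9. The receptors IL1R1 (3.36, 4.0 and 2.68) and IL1RAP (3.05, 3.42 and 4.01) were low, the adaptor PYCARD was at 2.27, 1.85 and 2.39 and CASP1 at 0.493, 0.232 and 0.783. GSDMD, the pore-forming gasdermin, was at 10.1, 7.7 and 9.25. NLRP3 was not analysed here.

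The calprotectin subunits, alarmins of keratinocytes and neutrophils, were at 1109, 945 and 2415 for S100A8 and 2538, 1782 and 4706 for S100A9, and their relative S100A12 was at 1492, 1144 and 3439.9. All 3 were highest in fresh 3, and the S100A9 to S100A8 ratio stayed near 2.04 ± 0.216. The S100 family summed to 24389.5, 21942 and 25964 FPKM, or 4.67% ± 0.364 of all FPKM, and S100A6 led it in every library. In the annexins ANXA1 held 61.1% ± 1.9, and ANXA1, ANXA2 (3005 ± 237), ANXA8 (795 ± 61.1) and ANXA3 (250.5 ± 26.9) followed each other without overlap.

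A list of acute phase proteins and neutrophil attractants was put together after the values were seen, so its counts are a description only. Of its members over 1 CPM, 13 of 16 were highest in fresh 3, where 34.2% of all genes over 1 CPM were. The neutrophil chemokine CXCL8 was at 145, 162 and 446, IL6 at 8.3, 24.8 and 62.3, the granulocyte growth factor CSF3 at 138, 187 and 294, the haemoglobin scavenger HP at 306, 259.5 and 519 and the pentraxin PTX3 at 24.3, 25.3 and 59.5. TNF was at 0.0905, 0.353 and 0.242 and CCL20 was not detected. Of the leukocyte members over 1 CPM, 8 of 11 were also highest in fresh 3, and the leukocyte list summed to 117, 141 and 140.0 FPKM. Their part in the levels of these genes was not tested.

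Interferon-stimulated genes were collected in the same way. Of those over 1 CPM, 28 of 29 were highest in fresh 2, where 31.4% of all genes over 1 CPM were, and 15 of the list were more than 2-fold above both other libraries in fresh 2, where 0.673% of all genes from 10 CPM upwards were. OASL was at 389, 945 and 447, IFIT3 at 166, 653 and 277, RIGI at 75, 202 and 96.9, RSAD2 at 41.4, 174 and 70.4 and the chemokine CXCL10 at 37.1, 259.7 and 65. APOBEC3A, a cytidine deaminase, was at 73.5, 409 and 87 and B2M, the light chain of class I antigen, at 502, 849 and 553. IFIT5 did not share the pattern, at 70.8, 68.1 and 63.4. The interferon beta gene IFNB1 had 1, 1 and 1 counts.

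Growth factor ligands of the EGF receptor were expressed with their receptor. EGFR was at 38.8, 39.1 and 46.3 and ERBB2 at 16.4, 17.1 and 13.5. HBEGF led the ligands at 49.9, 48.9 and 113, highest in fresh 3, followed by TGFA (29.7, 31.9 and 22.8), AREG (17.2, 24.5 and 37.7) and EREG (25.1, 17.7 and 32.9), which overlapped. EGF itself was at 0.618, 0.552 and 0.584. The EGF receptor family and ligand list had 8 of 12 members expressed and the Notch list 8 of 12, where 48.9% of all genes were. JAG1 was the leading ligand at 63.5, 64.3 and 66.9 and NOTCH3 the leading receptor at 28.1, 34.8 and 27.2, with NOTCH1 (12.9, 18.5 and 11.8) and NOTCH2 (11.7, 15.4 and 11.8) below it.

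Protease genes covered matrix breakdown and plasminogen activation. MMP1, interstitial collagenase, led the metalloproteinases at 139, 143 and 251, MMP28 was at 94.3, 50.04 and 90.9 and MMP14, a membrane-bound activator, at 60.6, 57.7 and 71.5. Their inhibitor TIMP1 was at 121, 190.2 and 325, highest in fresh 3. PLAU, the urokinase of migrating keratinocytes, was at 968, 931 and 867 and ranked 72, and its receptor PLAUR was at 53, 67.8 and 80.7. PLAT, the tissue-type activator, was at 63.9, 139 and 39.99, highest in fresh 2. CTSV held 72% ± 1.35 of the cathepsin sum, the galectin LGALS3 held 85.7% ± 3.39 of the galectins and GSTP1 66.5% ± 4.2 of the glutathione transferases.

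Glycolysis and hypoxia genes were also collected after the values were seen. The glucose transporter SLC2A1 was at 823, 684 and 966, enolase ENO1 at 1637, 1488 and 1782, pyruvate kinase PKM at 926, 953 and 1102 and the oxygen-sensing factor HIF1A at 518, 396 and 537. VEGFA was at 174, 172 and 193 and CA9 at 5.5, 6.16 and 6.5.

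Of the genes of the mitochondrial genome, 13 of 13 were expressed, where 48.9% of all genes were. They summed to 19496, 18017 and 12570.2 FPKM, lowest in fresh 3. Fresh 1 was highest for 11 of 13, where 34.4% of all genes over 1 CPM were highest in it. Within the set COX2 was highest at 4499, 4419.6 and 2509, ND1 was at 1402, 1286 and 880.1, and ND2 was at 10.4, 9.8 and 6.5, far under ND3 (358, 358 and 231). Of the ribosomal proteins with a symbol, 68 of 70 were expressed, beside the same 48.9% of all genes. They summed to 11.8% ± 0.939 of all FPKM and RPLP1 led them in each library. Beside FTH1, the ferritin light chain FTL was at 667, 629.7 and 817 and the transferrin receptor TFRC at 176, 142 and 229. The FTH1 to FTL ratio was 17.8, 19.9 and 29.1. NCOA4, which hands ferritin to lysosomes, was at 10.9, 10.5 and 2.61, lowest in fresh 3.

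Across all genes the libraries were close. Pearson's r of log2(FPKM + 1) across genes was 0.993 for fresh 1 with fresh 2, 0.991 for fresh 1 with fresh 3 and 0.990 for fresh 2 with fresh 3. Genes are not independent replicates, so these values are descriptions. The common biological coefficient of variation estimated by edgeR was 0.233 over 14126 genes. Of genes with a mean of at least 1 CPM, 834 of 13131 (6.35%) had a coefficient of variation (CV, the SD over the mean, on TMM-scaled CPM) above 50%, and the median CV was 12.1%. From 10 CPM upwards, 224 of 9206 (2.43%) did. Without fresh 3, the number from 1 CPM upwards was 543. By a chi-square test of counts against library size with Benjamini-Hochberg adjustment, 11398 of 16155 genes (70.6%) differed between the 3 libraries by more than counting error at an adjusted p of at most 0.05. This test compares these libraries and says nothing of a condition.

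**Figure D4:**
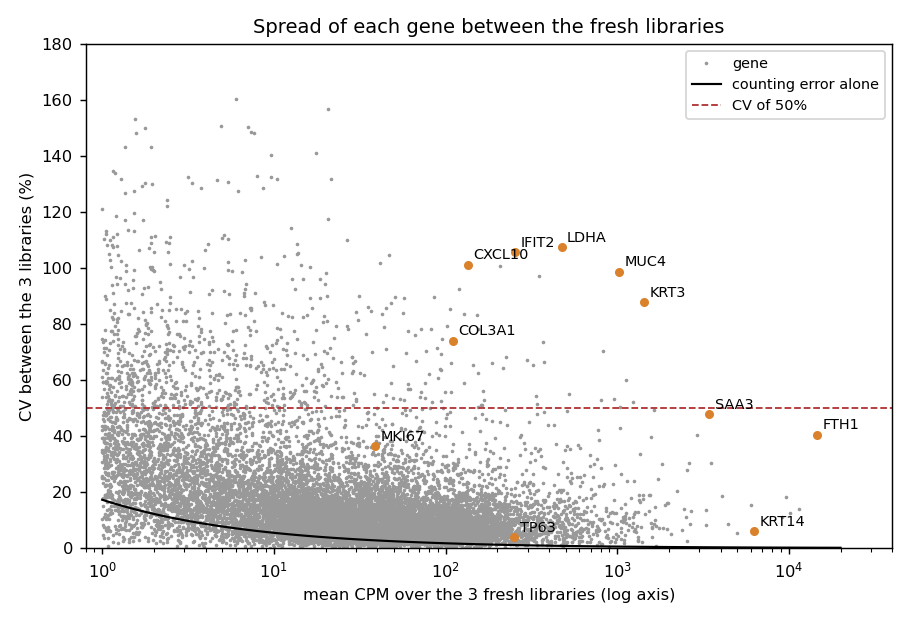
CV in percent between the 3 fresh libraries against mean CPM (log axis), 1 point a gene over 1 CPM, with the line that counting error alone would give and the 50% mark dashed. TP63 and KRT14 lie low on the axis, and KRT3, MUC4, IFIT2, CXCL10, COL3A1 and LDHA lie above the mark.

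The libraries stood apart in unlike ways. Among 9206 genes with a mean of at least 10 CPM, fresh 1 was over 2-fold above both other libraries for 3 genes (0.0326%) and over 2-fold below both for 41 (0.445%). Fresh 2 was above both for 62 genes (0.673%) and below both for 20 (0.217%). Fresh 3 was above both for 102 genes (1.11%) and below both for 41 (0.445%). The genes that fresh 1 held least of included FN1, KRT17, IL6, MMP3, MMP9 and PDGFRB. Those that fresh 2 held most of included KRT3, MUC1, MUC4, CXCL10, OASL and CDKN2A, and those that fresh 3 held most of included COL1A2, COL3A1, COL4A1, SPARC, S100A8, CXCL8 and HBEGF. The genes named in the last 2 sentences are examples chosen after their values were seen.

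**Figure D5:**
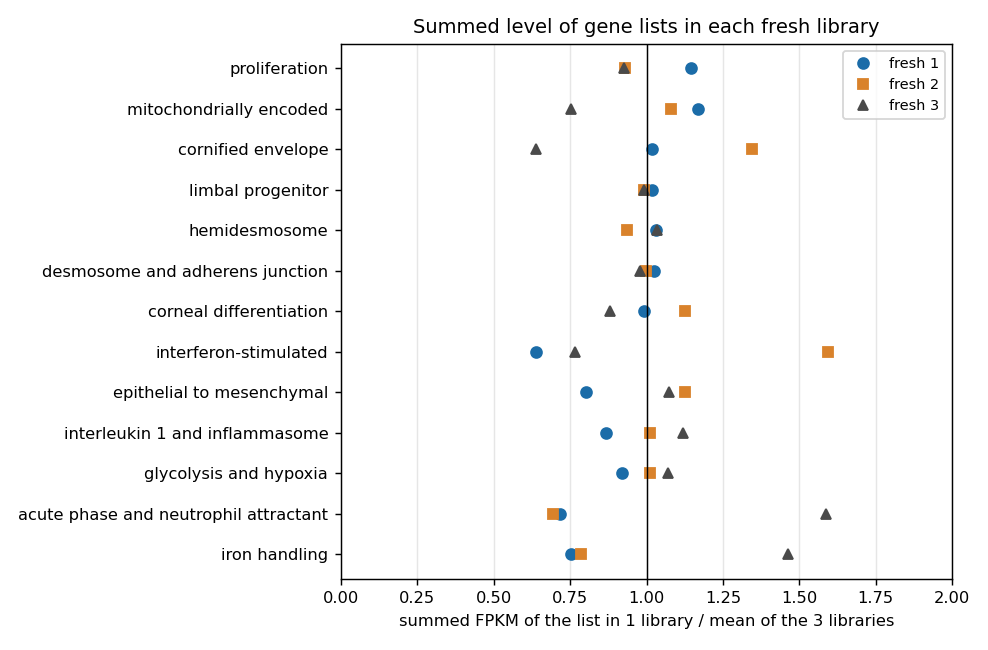
Summed FPKM of 13 gene lists in each fresh library, divided by the mean of the 3 libraries. The limbal progenitor list, of which KRT14 holds 56.9%, and the junction lists stay close to 1 in all 3 libraries. The interferon-stimulated list is high in fresh 2. The acute phase list and the iron handling list, of which FTH1 holds 94.4%, are high in fresh 3.

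The 15 genes with the highest CV, from 10 CPM upwards, were led by the phospholipase gene LOC100344012 (2.61, 57.9 and 1.32 CPM, highest in fresh 2) and the basement membrane collagen COL4A4 (3.35, 3.15 and 46 CPM, highest in fresh 3). The set also held INHBA, an activin subunit, at 6.63, 13.2 and 60.6 CPM, THBS2, a matrix thrombospondin, at 4.61, 6.18 and 30.3 CPM, and SCG2 at 8.17, 2.94 and 30.5 CPM. The interferon-stimulated CXCL11, IFIT2 and LGALS9 and the surface antigen PSCA were highest in fresh 2. LOC108176653 and LOC100348306, described as a myosin light chain and a Rab-5B, were highest in fresh 1, the first at 48.6, 5.58 and 7.69 CPM and the second at 29.2, 4.17 and 4.41 CPM.

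Some large differences sat between genes with the same description. LDHA was at 41.5, 345 and 1034 CPM, and LOC100009107, described by the same enzyme name, was at 4409.9, 3823 and 2326 CPM, so LDHA held 0.931%, 8.29% and 30.8% of their sum. The sum itself was 4451, 4168 and 3359 CPM. RPL34 was at 221, 0.841 and 139 CPM beside 219, 406 and 240.4 CPM for a second L34 gene, and the sum was 440.6, 407 and 379 CPM. How alike these genes are in sequence, and whether reads were divided between them, was not tested. The values of LDHA and RPL34 alone are therefore uncertain.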

How the data were processed

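Poly(A) RNA of rabbit limbal explant outgrowths was sequenced by the authors, aligned with hisat2 and counted with htseq-count. The genome build, annotation and strand setting are not given in the sources used here. The extraction reagent differs between the labels (TRIzol) and the study's methods (a column kit). The authors deposited counts, whole reads per gene, and FPKM, which equal count over library total over 1 length per gene in all 3 fresh libraries. Only the fresh columns were used.

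Means, SDs, ranks, list sums and ratios were computed in Python 3.11.15. TMM factors and dispersions came from edgeR 4.0.16 in R 4.3.3, and DESeq2 1.42.0 size factors were an alternative. Both the dispersion fit and the chi-square test were tested on simulated data. Lists held 24 marker sets and 20 families fixed by symbol, 17 symbols being assigned by description. 5 lists were added after the values were seen. Named genes were the top 30 by FPKM, the top 15 by CPM, list members, the first 5 of each family and the 15 highest CVs above 10 CPM, with others marked where used. The genes and lists were chosen with earlier results of these data known. No test between groups was run. Alternatives changed thresholds, scaling and libraries. Intervals for counts cover counting error only. Some genes of the lists are not reported here.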

Additional observations from a re-analysis of the deposited data

How the results depend on the processing

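No paired analysis was possible because the results describe 1 group and no test between groups was made. The number of expressed genes ran from 7503 at FPKM 5 to 14172 at 10 counts, against 10857, and from 10992 to 11040 without 1 library. The 100 most abundant genes held 22.3% of counts, and 35.4% of FPKM without the mitochondrial genes. In TPM the summed level of all list genes was 88686, against 45741 FPKM, as TPM sums to a larger total. The CV count of 834 became 224 from 10 CPM and 6382 with no filter, which also changes how many genes are counted, and ran from 543 without fresh 3 to 930 without fresh 1. The mean correlation was 0.989 with log2(FPKM + 0.1) and 0.981 over expressed genes only. The leading gene changed for 3 of 20 families by CPM (keratins to KRT5, claudins to CLDN4, ribosomal proteins to RPLP0), and 18 of 20 families kept theirs without fresh 3, where the connexins were led by GJB2. For single lists, the expressed members moved over 1.5 times in 15 alternatives and not in 105. At FPKM 5 the interleukin 1 and inflammasome list had 6 members expressed, the stromal list 12, the cornified envelope list 5, the leukocyte, conjunctival and corneal endothelium lists 2 each, the melanocyte list 1 and the Schwann cell and neuron list 0. The other moves were in the endothelial, Schwann cell, lens and erythrocyte lists, between 0, 1 and 2 members. The sum of each fixed list moved by more than its SD in TPM, and none did with TMM scaling. Leaving out 1 of 3 libraries cannot move a mean by a whole SD, so those sums say nothing of stability. The stromal sum without S100A4 and the lens and retina sum without BEST1, alternatives chosen after seeing the data, were 432.9 and 1.46 FPKM. Depth limits genes near 3 counts.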
